A study of Homo sapiens with 12 samples.

Results

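The replication-dependent histone genes encode the bulk of the H1, H2A, H2B, H3 and H4 proteins that package newly copied DNA. They were taken here as the protein-coding genes with symbols H1-1 to H1-5, or with symbols that start with H2AC, H2BC, H3C or H4C, that had at least 10 reads in 1 library. The members were therefore chosen by measured reads, and that they were read is no result. By this rule 29 of the 63677 genes in the count table were members: 4 H1 genes, 6 H2A genes, 10 H2B genes, 5 H3 genes and 4 H4 genes. RefSeq lists 69 protein-coding genes under these symbols. Of these, 37 had a row that could be matched by gene identifier and 32 were not analysed here.

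The libraries came from polyA RNA of JEKO1, JVM2 and MAVER1, 3 established cell lines of mantle cell lymphoma (MCL), a B-cell cancer. Cells of each line were kept as control or received ironomycin, ibrutinib or the pair of drugs (called both drugs) for 48 h. Ironomycin, a small molecule made from the ionophore salinomycin that traps lysosomal iron, was given to JEKO1 at 50 nM and to the other lines at 250 nM. Ibrutinib, a covalent inhibitor of Bruton's tyrosine kinase in the B-cell receptor pathway, was given at 0.5 µM to JEKO1, 1.5 µM to JVM2 and 6.25 µM to MAVER1. There was 1 library per line and treatment, 12 in all, so that the 3 lines were the replicates of each treatment. For ironomycin, line and dose cannot be told apart where JEKO1 is compared with the other lines, whereas JVM2 and MAVER1 shared a dose. For ibrutinib, alone or in both drugs, each line had its own dose, so line and dose cannot be told apart.

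Most messenger RNAs end in a polyA tail, but the mRNAs of replication-dependent histones normally end just after a conserved stem-loop. The stem-loop is bound by SLBP and cut by a complex that contains the U7 small nuclear RNA, and these mRNAs accumulate in S phase and are degraded when DNA synthesis stops. Selection for polyA therefore recovers mainly those histone transcripts that carry a tail, from read-through to a downstream polyadenylation signal, along with any carry-over of the tailless form. These forms cannot be told apart in gene counts, and the values below are of histone RNA in polyA libraries, not of all histone mRNA in the cells.

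The annotated 3′ ends of the members are shown first. Which transcripts carried a tail in these libraries was not examined. In the GENCODE 29 annotation (GRCh38, sequences in the direction of transcription), a 16-base stem-loop was found after the stop codon in 17 of 29 members, at 22 to 67 bases from it. The stem-loop is in capitals with 5 bases on either side:
H2AC18: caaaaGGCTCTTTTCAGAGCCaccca
H2BC4: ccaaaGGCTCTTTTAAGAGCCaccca
H2AC11: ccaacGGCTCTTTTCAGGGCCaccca
H4C11: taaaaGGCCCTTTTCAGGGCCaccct
The H2AC18 form was the most frequent and was present in 11 members, the H4C11 form was in the 3 members H4C8, H4C11 and H4C16, the H2BC4 form in 2 and the H2AC11 form in 1. The motif of a polyadenylation signal, AATAAA, was present in the last 40 bases of at least 1 transcript of 11 members. It is in capitals in the ends of 3 members whose annotated transcripts run far past the stem-loop:
H3C14: ggaaatggAATAAAacttcgttttgtaa
H2BC21: ttgttattAATAAAgttaccaattaatt
H2AC6: catgaggtAATAAAaggtaatgcaaagg
At the other extreme, the annotated H4C11 transcript ended 6 bases after its stem-loop. It counts among the 11 members, but its AATAAA lies just before the stem-loop and not past it. A further 8 members, H2BC12 and H1-2 among them, were annotated with no base after the stop codon, so their ends are not known from this source.

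Promoters are printed for H2BC12 and H1-2, the members with the most reads, and for H4C11, which was lower in all 3 lines with ironomycin and with both drugs. The 250 bases before the start are given from RefSeq (GRCh38.p14, which is not the build named in the submitters' processing notes), with the octamer ATTTGCAT, the TATA box TATAAA and the CCAAT box CCAAT in capitals on either strand. H2BC12 is at chr6:27146859-27147108 on the minus strand, H1-2 at chr6:26056471-26056720 on the minus strand and H4C11 at chr6:27823842-27824091 on the plus strand.
H2BC12: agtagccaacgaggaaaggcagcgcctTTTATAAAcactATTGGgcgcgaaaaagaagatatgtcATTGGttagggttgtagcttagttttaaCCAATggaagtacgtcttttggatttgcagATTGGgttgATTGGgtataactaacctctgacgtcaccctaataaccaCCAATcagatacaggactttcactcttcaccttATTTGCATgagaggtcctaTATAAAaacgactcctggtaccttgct
H1-2: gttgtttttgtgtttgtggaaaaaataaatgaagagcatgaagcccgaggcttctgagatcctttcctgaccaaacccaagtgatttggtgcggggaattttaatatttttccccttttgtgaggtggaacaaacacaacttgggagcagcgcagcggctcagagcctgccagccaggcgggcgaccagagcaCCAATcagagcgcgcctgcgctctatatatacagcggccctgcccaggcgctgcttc
H4C11: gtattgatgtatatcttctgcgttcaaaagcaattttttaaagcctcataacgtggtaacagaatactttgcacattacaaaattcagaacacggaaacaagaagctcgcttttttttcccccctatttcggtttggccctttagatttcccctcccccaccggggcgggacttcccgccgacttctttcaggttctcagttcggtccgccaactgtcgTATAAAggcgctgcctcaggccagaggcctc
In H2BC12 the octamer began 46 bases and a TATA box 27 bases before the start, and 6 CCAAT boxes lay between 79 and 211 bases before it. A further run of capitals near the far end of H2BC12 is a TATA box read on both strands, where the matches overlap. H1-2 held 1 CCAAT box at 57 bases, and H4C11 held 1 TATA box at 31 bases. RefSeq gave promoters for 26 of the 29 members. The octamer was in 34.6% of these and in 1.63% of all 35116 promoters of the table, the TATA box in 69.2% and 10.7%, and the CCAAT box in 88.5% and 32.0%. By class, the octamer was found in 5 of 9 H2B, 3 of 6 H2A and 1 of 4 H3 promoters and in none of the 4 H1 and 3 H4 promoters, and the CCAAT box was in every H1, H2A, H2B and H3 promoter and in none of the 3 H4 promoters.

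The libraries held 35448523 to 38630809 reads assigned to genes. Reads of members numbered 13997 to 36557 per library in JEKO1, 4783 to 14251 in JVM2 and 2123 to 3225 in MAVER1. All levels are CPM after TMM scaling, that is, reads scaled to a common library size corrected for composition. Of the 29 members, 17 had at least 10 reads in all 12 libraries, and 24 reached that number in every line. Just inside the threshold were H2BC12L, with at most 15 reads, and H1-4 and H2BC26, each with at most 23. Just outside were H2AC21 with at most 7 reads and H1-1 with at most 2, and another 6 genes of the rule (H2AC1, H2AC7, H2AC19, H2BC1, H4C14 and H4C15) had 0 reads in every library. The markers CD79A, of B cells, and CCND1, of MCL, were read in every library, whereas SOX11, the transcription factor of most MCL, was at 0 in all 4 JVM2 libraries.

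A few genes held most of the reads of the 29 members, which leave out the 32 genes without a matched row. H2BC12 alone had 31.0% of the reads of members over the 12 libraries, and the linker histone H1-2 had 20.6%. With H2AC6 and H2AC18, 4 genes made up 71.5%. Per kilobase of the longest annotated transcript, the mean level over the libraries was 246 CPM for H2BC12, 99.8 for H1-2, 54.1 for H2AC18, 18.5 for H2AC6 and 15.6 for H4C11. H2BC12 and H1-2 are annotated with no base after the stop codon and H2AC6 with 1187. The lengths of H2BC12 and H1-2 may therefore be too short, and their values per kilobase too high. The mix of genes also differed between lines. H1-2 took 33.8% of the reads of members in JVM2, 15.7% in JEKO1 and 15.2% in MAVER1, and H4C11 took 9.22% in MAVER1 but 0.799% in JEKO1.

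The summed level of the members separated MAVER1 from the other lines and separated the libraries with ironomycin from those without it in JEKO1 and JVM2. In JEKO1 the sum was 717 CPM in the control, 335 under ironomycin, 919 under ibrutinib and 333 under both drugs. In JVM2 the corresponding sums were 395, 154, 399 and 129 CPM, and in MAVER1 they were 65.7, 61.3, 57.2 and 85.1 CPM. No MAVER1 library reached the lowest JVM2 library, and in JEKO1 and JVM2 both libraries with ironomycin were below both libraries without it. In MAVER1 the libraries with and without ironomycin overlapped. With ironomycin alone the sum was therefore 46.7% of control for JEKO1, 38.9% for JVM2 and 93.4% for MAVER1, and with both drugs it was 46.5%, 32.6% and 130%. Without H2BC12, H1-2, H2AC6 and H2AC18 the JEKO1 sum was 198 CPM in the control, 114 with ironomycin and 124 with both drugs. In JVM2 it was then 64.9, 41.3 and 37.4 CPM, and in MAVER1 34.8, 28.7 and 36.9 CPM, so that the change was smaller in JEKO1 and JVM2, and the MAVER1 library with both drugs was nearer its control. These sums have no test, because the genes were chosen with results known. In bulk RNA, fewer cells in S phase and less histone RNA per cell cannot be told apart.

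**Figure D1:**
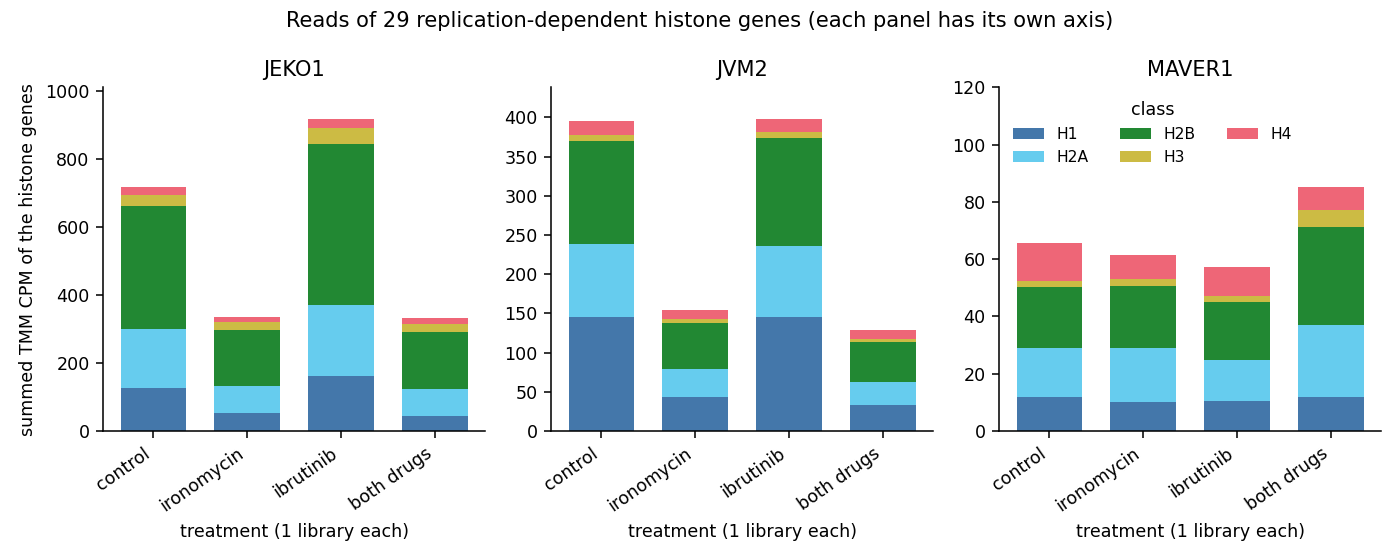
Summed TMM CPM of the 29 histone genes (vertical axis, separate scale per cell line) in the control, ironomycin, ibrutinib and both-drug libraries, stacked by class from H1 at the bottom to H4 at the top; each bar is 1 library. In JEKO1 the ironomycin and both-drug bars stand at 335 and 333 CPM against 717 in the control, in JVM2 at 154 and 129 against 395, and in MAVER1 at 61.3 and 85.1 against 65.7.

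The summed level of the members of each class was lower in JEKO1 and JVM2 in the libraries with ironomycin, and the classes divided in MAVER1. The H1 sum went from 125 CPM in the JEKO1 control to 51.5 with ironomycin and 43.0 with both drugs, and from 146 to 43.1 and 33.0 in JVM2. The H2B sum, the largest in JEKO1, went from 360 to 165 and 170 CPM in JEKO1 and from 131 to 58.9 and 50.8 in JVM2. In MAVER1 the H2A, H2B and H3 sums with both drugs were higher than in the control, at 25.2 against 17.3, 34.1 against 21.2 and 5.96 against 2.27 CPM, whereas the H4 sum was lower, at 8.05 against 13.2 CPM, and the H1 sum was 11.8 in both.

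To ask what ironomycin alone did across the lines, each of the 28 members that passed the filter on low counts was tested in 1 fit over all genes (edgeR quasi-likelihood test with cell line as a block, n = 3 lines per treatment). H2BC12L, with 0 to 15 reads, did not pass that filter. None of the 28 members was called at an adjusted p under 0.05 with a log2 fold change of at least 1, where 0.214% of 18674 genes were called, 0.0857% as lower. DESeq2 called 1, H2AC20. At an unadjusted p under 0.05 there were 13 members, all lower, against 11.2% of all genes in that direction. The fitted change was below 0 for 27 of 28 members, and their median was -0.85 on the log2 scale, beside 0.03 over all genes tested. H4C11 had the smallest adjusted p, with a log2 fold change of -0.92 ± 0.16 (SE) and an adjusted p of 0.0395, without reaching the fold required. It was the 1 member past the adjusted p, which 0.171% of all genes passed as lower.

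Within single lines, the log2 ratio of ironomycin to control was below 0 in all 26 tested members with reads in JEKO1, in all 28 in JVM2 and in 18 of 28 in MAVER1. Over all genes, the ratio was below 0 for 47.1% of them in JEKO1, 49% in JVM2 and 46% in MAVER1. The median ratio of the members was -0.81 for JEKO1, -0.80 for JVM2 and -0.24 for MAVER1. Ratios of -1 or lower were found for 7 members in JEKO1, 11 in JVM2 and 3 in MAVER1, where they were found for 2.1%, 1.82% and 3.63% of all genes. Ratios of single lines rest on 1 library against another, and were computed from log2 CPM with a prior count of 2. Of the 27 members with a ratio in every line, H2BC12L included, 19 were below 0 in all 3 lines, as were 20.8% of all genes, and 8 were below 0 in JEKO1 and JVM2 and above it in MAVER1: H2AC6, H2AC18, H2BC12, H2BC21, H3C14, H3C15, H4C8 and H4C16.

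**Figure D2:**
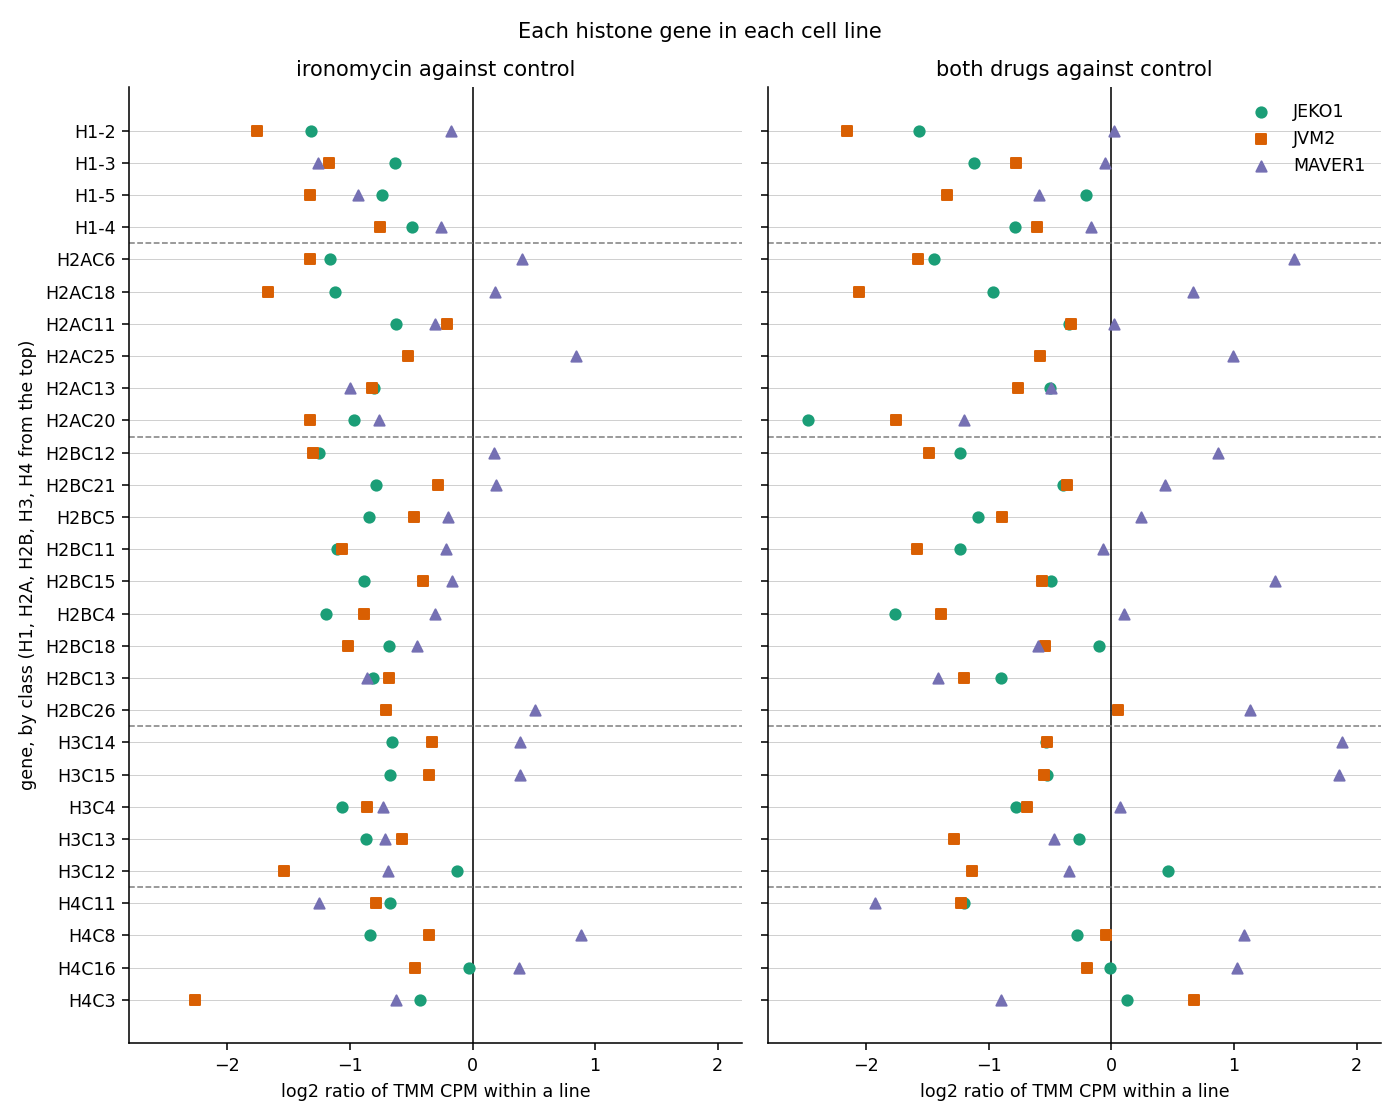
Log2 ratio of TMM CPM to the control of the same line (horizontal axis) for the 28 tested histone genes, ordered by class and mean level, with ironomycin (left) and with both drugs (right); circles are JEKO1, squares JVM2 and triangles MAVER1, each from 1 library against another. Circles and squares lie left of 0 for ironomycin in every gene with reads, and 16 of 28 MAVER1 triangles lie right of 0 with both drugs.

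The ironomycin effect differed between cell lines for 10 of 28 members in a test of the difference itself (edgeR quasi-likelihood test of the line by ironomycin terms, adjusted p under 0.05), where 7.97% of all genes were called. These were H2BC12, H1-2, H2AC18, H2AC6, H4C8, H2AC25, H3C15, H2BC21, H3C14 and H2BC4. The test compares, within each line, the 2 libraries with ironomycin and the 2 without it, with 1 ibrutinib effect shared by all lines. The fitted effect of a line therefore combines ironomycin without and with ibrutinib. In MAVER1 the log2 ratio of each of the 10 genes was higher for both drugs against ibrutinib than for ironomycin against control. It was 2.09 and 0.39 for H3C14, 1.70 and 0.40 for H2AC6, 0.98 and 0.18 for H2BC12, and 0.97 and 0.88 for H4C8. In all 10 genes the fitted effect in MAVER1 was above that in JVM2, and it was above that in JEKO1 in the 9 with reads there. None of the 10 was called when MAVER1 was left out, 9 members were called without JEKO1 and 8 without JVM2. DESeq2 called 13. The share of all genes called in these other fits is not given here, so these counts do not show whether the members differ from other genes.

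H2BC12 had 242 CPM in the JEKO1 control, 102 under ironomycin, 323 under ibrutinib and 103 under both drugs. In JVM2 its level was 105, 42.4, 111 and 37.5 CPM in the same order, and in MAVER1 it was 12.1, 13.7, 11.2 and 22.2 CPM. The libraries with ironomycin were thus the lower ones in JEKO1 and JVM2 and the higher ones in MAVER1. The fitted ironomycin effect on H2BC12 was -1.46 ± 0.16 (SE) for JEKO1, -1.43 ± 0.17 in JVM2 and 0.61 ± 0.18 in MAVER1 on the log2 scale (adjusted p = 0.00126 for the difference between lines).

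H1-2, a linker histone that binds DNA where it enters and leaves the nucleosome, had 120 CPM in the JEKO1 control and 48.1, 155 and 40.4 with ironomycin, ibrutinib and both drugs. In JVM2 its level was 145, 42.6, 145 and 32.4 CPM, and in MAVER1 10.97, 9.69, 9.19 and 11.2 CPM. In JEKO1 and JVM2 the libraries with ironomycin were the lower ones, and in MAVER1 the libraries with and without it overlapped. The fitted effect was -1.64 ± 0.15 for JEKO1, -1.95 ± 0.16 in JVM2 and 0.05 ± 0.17 in MAVER1 (adjusted p = 0.00151).

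H2AC6 had the largest fitted effect in MAVER1 among the 4 members with the most reads. Its level was 98.6, 44.1, 108 and 36.1 CPM in JEKO1 (control, ironomycin, ibrutinib and both drugs), 25.2, 10.1, 28.8 and 8.43 CPM in JVM2, and 1.88, 2.50, 1.62 and 5.38 CPM in MAVER1. The fitted effect was -1.36 ± 0.20 for JEKO1, -1.54 ± 0.22 in JVM2 and 1.17 ± 0.30 in MAVER1 (adjusted p = 0.00326). H2AC18 showed -1.27 ± 0.19, -1.78 ± 0.19 and 0.65 ± 0.22 (adjusted p = 0.00209). Another copy with the same protein sequence, H2AC19, is listed at 0 in every library. How reads of near-identical copies were assigned is not given in the sources used here, so that the level of H2AC18 may include reads of its copy.

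**Figure D3:**
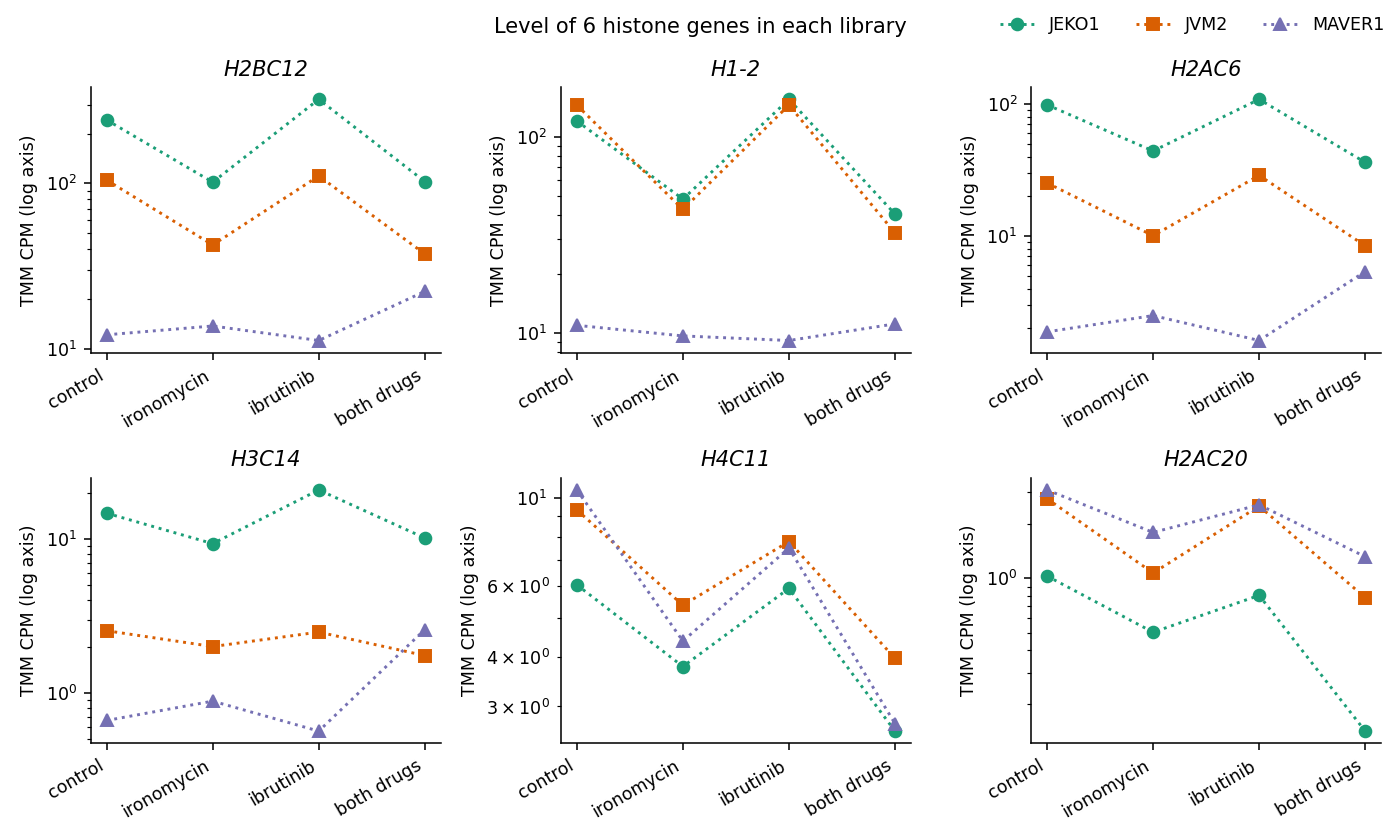
Level of 6 histone genes (TMM CPM, log axis) in the control, ironomycin, ibrutinib and both-drug libraries of JEKO1 (circles), JVM2 (squares) and MAVER1 (triangles); each point is 1 library and dotted lines join the libraries of a line. H2BC12, H2AC6 and H3C14 are higher with both drugs than in the control in MAVER1 and lower in the other lines, whereas H4C11 and H2AC20 are lower in all 3 lines.

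To ask what both drugs did together, the members were compared with the same controls, so that this comparison and the one above share their control libraries. With both drugs, 5 of 28 members fell, and none rose, at an adjusted p under 0.05 with a log2 fold change of at least 1. Over all genes 6.29% were called, 1.48% as lower and 4.81% as higher. At an unadjusted p under 0.05 there were 9 members, all lower, against 19.4% of all genes in that direction. The 5 were H4C11, H2AC20, H2BC13, H2BC11 and H1-2, of 3 different core classes and the linker class. The median change over the members was -0.60, beside 0.05 over all genes, and 20 of 28 members were below 0. Leaving out JEKO1 reduced the count of 5 to 1 and leaving out JVM2 reduced it to 3. Without MAVER1 the 3 called were H1-2, H2BC12 and H2AC6, so that H1-2 was the 1 of the 5 still called. No member was called when cell line was left out of the model, and none when only the control and both-drug libraries were fitted.

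H4C11, a gene for the core histone H4, was lower with both drugs in each line. Its level was 6.06, 3.78, 5.93 and 2.60 CPM in JEKO1, 9.33, 5.38, 7.78 and 3.96 CPM in JVM2, and 10.5, 4.38, 7.49 and 2.72 CPM in MAVER1. In each line the library with both drugs was the lowest and the control the highest. With both drugs the log2 fold change was -1.47 ± 0.16 (SE, adjusted p = 0.00174). Without MAVER1 it was -1.23 and was no longer called. The ironomycin effect on H4C11 was -0.93 ± 0.17 for JEKO1, -0.88 ± 0.16 in JVM2 and -1.35 ± 0.17 in MAVER1, and the difference between lines did not pass the test (adjusted p = 0.337).

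H2AC20, an H2A gene, had the steepest fall of the 5. In JEKO1 it had 1.03, 0.502, 0.804 and 0.142 CPM, in JVM2 2.77, 1.07, 2.52 and 0.781 CPM, and in MAVER1 3.10, 1.80, 2.56 and 1.32 CPM. It was the lowest with both drugs in every line, with 6 reads in the JEKO1 library. The log2 fold change was -1.74 ± 0.28 (adjusted p = 0.00350) with both drugs and -1.06 ± 0.26 (adjusted p = 0.0771) with ironomycin alone. The call with both drugs was lost without JEKO1, at -1.50, and without MAVER1, at -2.14. H4C11 and H2AC20 were the only members with a log2 ratio of -1 or lower in all 3 lines with both drugs.

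H2BC13 fell by 1.27 ± 0.25 on the log2 scale (adjusted p = 0.00653), from 0.754 to 0.379 CPM in JEKO1, 0.999 to 0.404 in JVM2 and 0.580 to 0.185 in MAVER1. H2BC11 fell by 1.11 ± 0.26 (adjusted p = 0.0115) and was close to control in MAVER1, at 1.11 against 1.16 CPM, while it went from 30.7 to 13.0 CPM in JEKO1 and from 8.85 to 2.91 in JVM2. H1-2 fell by 1.25 ± 0.40 (adjusted p = 0.0411), with MAVER1 at 11.2 against 10.97 CPM. Leaving out any single line ended the call for H2BC11, leaving out JEKO1 or MAVER1 ended it for H2BC13, and leaving out JEKO1 or JVM2 ended it for H1-2. H2BC4, with -1.06 ± 0.36 (adjusted p = 0.0515), was just outside the threshold.

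In MAVER1 the members divided with both drugs. Of 28 tested members 16 were higher than control and 12 lower, with 7 at a log2 ratio of 1 or higher and 3 at -1 or lower, where 8.98% and 4.78% of all genes reached these ratios. Of 27 members with a ratio in every line, 14 were lower in JEKO1 and JVM2 and higher in MAVER1, and 11 were lower in all 3, as were 23.1% of all genes. The highest ratios in MAVER1 were those of H3C14 at 1.88 and H3C15 at 1.85, then H2AC6 at 1.49, H2BC15 at 1.33, H2BC26 at 1.13, H4C8 at 1.08 and H4C16 at 1.02. The lowest were those of H4C11 at -1.93, H2BC13 at -1.42 and H2AC20 at -1.20. In JEKO1 24 of 26 and in JVM2 26 of 28 members were below control, where 45.1% and 48.2% of all genes were, and 45% were in MAVER1.

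Most of the members that were higher in MAVER1 with both drugs had long annotated 3′ ends. Members were split at 200 annotated bases after the stop codon of their longest GENCODE 29 transcript end, a split chosen after the values were seen, into 14 long-ended and 15 short-ended members, 14 of which were tested. With both drugs the median log2 ratio of the long-ended members was -0.51 for JEKO1, -0.54 for JVM2 and 1.01 for MAVER1. For the short-ended members it was -0.84, -1.21 and -0.41. In MAVER1, 12 of 14 long-ended members were above control, and 10 of 14 short-ended members were below it. With ironomycin alone the medians were -0.81, -0.47 and 0.29 for the long-ended and -0.81, -1.24 and -0.72 for the short-ended members. Of the 5 members that fell with both drugs 4 were short-ended, and H2BC11, with 569 bases after the stop codon, was long-ended. Since 8 members have no annotated base after the stop codon, a short annotated end need not be a short transcript, and the short-ended H2BC12, H2AC18, H3C4 and H1-2 were above control in MAVER1, the last by 0.02. The split was not tested.

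**Figure D4:**
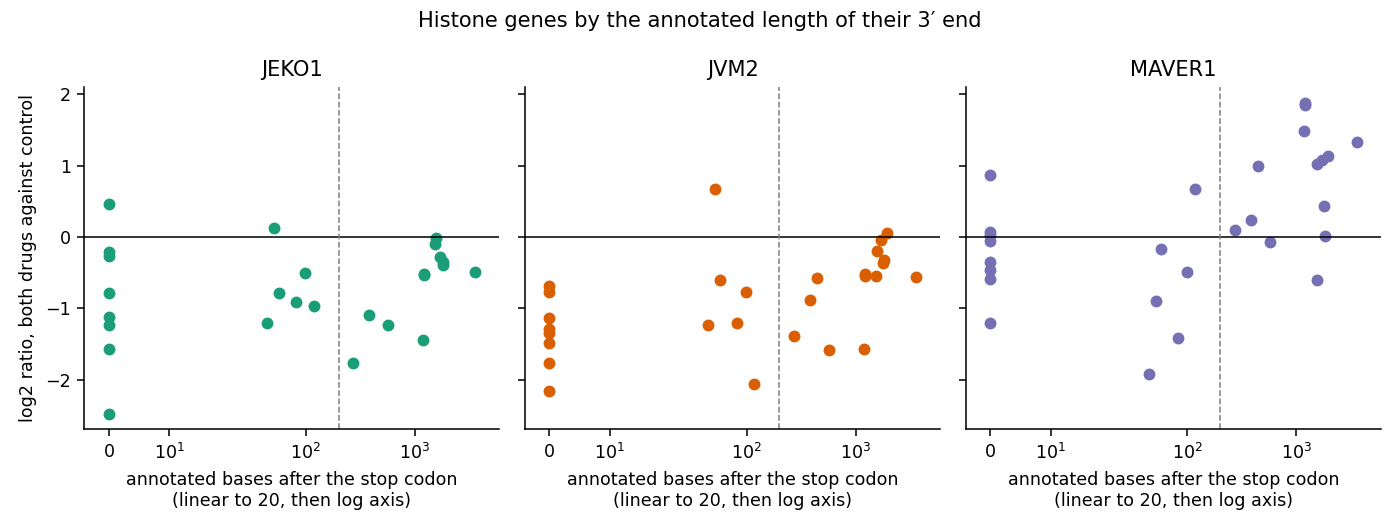
Log2 ratio of both drugs to control (vertical axis) against the annotated bases after the stop codon (horizontal axis, linear to 20 and logarithmic beyond) for the tested histone genes in JEKO1, JVM2 and MAVER1; each point is 1 gene, and the dashed line marks 200 bases. In MAVER1 12 of 14 genes to the right of the line are above 0, while in JEKO1 all 12 with reads are below 0.

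The question of what ironomycin added to ibrutinib was taken from both drugs against ibrutinib alone. The same 5 members were called as lower, against 0.744% of all genes as lower, 3.91% as higher and 4.66% in all. H4C11 fell by 1.20 ± 0.16 (SE, adjusted p = 0.00406), H2AC20 by 1.50 ± 0.28 (adjusted p = 0.00725), H2BC13 by 1.24 ± 0.25 (adjusted p = 0.00933), H2BC11 by 1.21 ± 0.26 (adjusted p = 0.0105) and H1-2 by 1.34 ± 0.41 (adjusted p = 0.0370). H2BC5 and H3C4 passed the adjusted p without the fold, at -0.96 ± 0.24 (adjusted p = 0.0192) and -0.95 ± 0.30 (adjusted p = 0.0449), so that 7 members passed it as lower, against 11.5% of all genes. At an unadjusted p under 0.05 there were 14 members, all lower, where 17.7% of all genes were lower and 20.1% higher. No member was called without JEKO1, and without MAVER1 the 3 called were H1-2, H2BC12 and H2AC6. In single lines, all 26 members with reads in JEKO1, 27 of 28 in JVM2 and 12 of 28 in MAVER1 were below the ibrutinib library, where 44.9%, 48% and 45.7% of all genes were.

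Ibrutinib alone did not give a call for any member, in edgeR or DESeq2, and no member had an unadjusted p under 0.05. Over all genes the call rate was likewise 0%, and at an unadjusted p under 0.05 2.24% of genes were lower and 1.4% higher. The members were nevertheless placed differently in the lines: 23 of 26 were above control in JEKO1, 14 of 28 in JVM2 and 10 of 28 in MAVER1, with median log2 ratios of 0.37, -0.01 and -0.22. Over all genes 46.6%, 49.8% and 48.6% were below control. For ibrutinib added to ironomycin (both drugs against ironomycin alone), again no member was called by either tool and 2, H4C11 and H2AC20, had an unadjusted p under 0.05, both lower. Over all genes the call rate was 0%, and 4.98% were lower and 5.57% higher at an unadjusted p under 0.05. H4C11 was at -0.55 ± 0.17 (adjusted p = 0.431) and H2AC20 at -0.69 ± 0.29 (adjusted p = 0.453). The departure of both drugs from the sum of the single changes gave no call among members or, at 0%, among all genes, no member had an unadjusted p under 0.05, which 0.632% of all genes had as lower and 1.33% as higher, and DESeq2 called no member.

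Among the H1 genes, H1-2 held nearly all reads. H1-3 was mainly a JEKO1 transcript, with 4.22 CPM in the control and 2.70, 4.70 and 1.92 with ironomycin, ibrutinib and both drugs, and at most 0.448 CPM in any library of the other lines. H1-5 and H1-4 had at most 0.855 and 0.578 CPM. All 4 H1 genes were lower than control with ironomycin in every line. The fitted changes were -0.88 ± 0.37 for H1-3, -1.16 ± 0.42 for H1-5 and -0.56 ± 0.30 for H1-4, none of which passed the adjusted test.

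Of the remaining H2A genes, H2AC11 had 13.2, 8.56, 17.8 and 10.4 CPM in JEKO1 and between 2.09 and 3.40 CPM in every other library, and H2AC13 had 1.96 to 4.90 CPM in JEKO1 and at most 2.01 CPM elsewhere. H2AC13 was lower than control with both drugs in each line, with a fitted change of -0.61 ± 0.25 (adjusted p = 0.0940). H2AC25 stood apart by line. It had 0 reads in all 4 JEKO1 libraries, 3.02 to 4.54 CPM in JVM2 and 2.48 to 5.83 CPM in MAVER1. In MAVER1 it was higher with ironomycin and with both drugs, at 5.26 and 5.83 against 2.90 CPM in the control, and in JVM2 it was lower, at 3.13 and 3.02 against 4.54. Its call for a difference between lines (adjusted p = 0.0232) therefore rests on JVM2 and MAVER1.

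H2BC26, the H2B gene next to H2AC25, also had 0 reads in the JEKO1 libraries. With 0 reads, 3 counts set a limit of 0.071 to 0.0754 CPM per library, and of 0.0183 CPM over the 4 libraries, which covers counting error only. Of other genes in the same neighbourhood, TRIM11 had 7209 and RNF187 had 68037 reads over the 4 JEKO1 libraries. The nearest genes had few or none there. H2BC27P, between H2BC26 and RNF187, had 0 reads in JEKO1 and JVM2 and 11 to 20 per library in MAVER1. MIR4666A had 1 read in JEKO1, and RPL23AP15, on the other side of H2AC25, had 0 reads in every line. H2BC26 had at most 10 reads in JVM2 and 23 in MAVER1.

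The other H2B genes were read at lower levels than H2BC12. H2BC21 had 36.4, 21.1, 46.7 and 27.6 CPM in JEKO1, 4.04 to 5.62 CPM in JVM2 and 1.21 to 2.11 CPM in MAVER1, and its ironomycin effect differed between lines (adjusted p = 0.0258). For H2BC5 the JEKO1 levels were 31.96, 17.8, 41.2 and 15.02 CPM. H2BC4 had 5.83, 2.51, 6.66 and 1.68 CPM in JEKO1, with fitted ironomycin effects of -1.59 ± 0.23 for JEKO1, -1.11 ± 0.25 in JVM2 and 0.05 ± 0.29 in MAVER1 (adjusted p = 0.0407 for the difference). H2BC15 went from 1.22 to 3.14 CPM in MAVER1 with both drugs, and from 9.12 to 6.48 in JEKO1. H2BC18 was lower than control in all 3 lines with both drugs, at ratios of -0.10, -0.54 and -0.60. H2BC12L had at most 0.377 CPM.

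H3C14 and H3C15 had nearly the same count in every library, 21 to 831 and 21 to 830 reads, and their annotated 3′ ends have the same length, 1209 bases. Whether the same reads were counted for both copies or shared between them is not known, since the counting tool is not given. They are counted here as 2 members, so a count that holds both may rest on a single signal. The H3 sum and the sum of all members may likewise hold the same reads more than once. H3C14 had 14.7, 9.35, 20.9 and 10.2 CPM in JEKO1, 2.54, 2.005, 2.49 and 1.75 CPM in JVM2, and 0.663, 0.886, 0.566 and 2.59 CPM in MAVER1. With both drugs the MAVER1 library was above the JVM2 library, and in the other treatments it was below. The fitted ironomycin effect on H3C14 was -0.85 ± 0.25 for JEKO1, -0.42 ± 0.32 in JVM2 and 1.46 ± 0.40 in MAVER1 (adjusted p = 0.0272), and H3C15 gave an adjusted p of 0.0258. In MAVER1 the log2 ratio of H3C14 was 0.39 for ironomycin against control and 2.09 for both drugs against ibrutinib. H3C4 was lower with ironomycin in each line, by log2 ratios of -1.07, -0.86 and -0.73, and H3C12 had at most 0.880 CPM.

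Among the H4 genes, H4C8 was opposite in direction to H4C11 in MAVER1, at 0.995, 1.88, 1.08 and 2.16 CPM, and had 10.96, 6.10, 14.2 and 9.01 CPM in JEKO1 and 2.69 to 4.76 CPM in JVM2. Its ironomycin effect was -0.74 ± 0.14 for JEKO1, -0.44 ± 0.16 in JVM2 and 0.96 ± 0.20 in MAVER1 (adjusted p = 0.00474). H4C16 was nearly level in JEKO1, at 5.69 to 5.88 CPM in the 4 libraries, and ran from 1.49 in the control to 3.09 CPM with both drugs in MAVER1, without passing the test between lines (adjusted p = 0.0593). H4C3 had 0 to 29 reads.

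The replication-independent histone variants, whose mRNAs are mostly polyadenylated, were tested in the same fit. None of the 11 tested replication-independent variants was called for ironomycin or for both drugs with the fold required, and H2AJ with ironomycin (-0.48 ± 0.09, adjusted p = 0.0470) and 5 of 11 genes with both drugs passed the adjusted p as lower, where 0.171% and 14% of all genes did. With both drugs H2AJ was at -0.68 ± 0.09 (adjusted p = 0.00252), H2AX, which is phosphorylated at DNA breaks and whose gene makes both a stem-loop form and a polyadenylated form, at -0.65 ± 0.11 (adjusted p = 0.00379), MACROH2A1 at -0.51 ± 0.09 (adjusted p = 0.00432) and H2AZ1 at -0.43 ± 0.12 (adjusted p = 0.0261). The fifth, CENPA, marks centromeres. H3-3A and H3-3B, which encode the replacement histone H3.3, were at -0.31 ± 0.11 and -0.13 ± 0.09, H2AZ2 at -0.17 ± 0.11, H1-10 at 0.13 ± 0.14 and MACROH2A2 at -0.20 ± 0.34, none of which passed. With both drugs the median log2 ratio of the variants was -0.47 for JEKO1, -0.37 for JVM2 and -0.21 for MAVER1.

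Genes that act on histone mRNA were next. Of 25 genes for stem-loop processing, none was called with the fold and 12 passed the adjusted p as lower with both drugs, where over all genes 14% passed as lower and 14.2% as higher. SLBP, which binds the stem-loop, was at -0.67 ± 0.14 (adjusted p = 0.00727) with both drugs and at -0.42 ± 0.14 (adjusted p = 0.1175) with ironomycin. SLBP had 188 CPM in the JEKO1 control and 84.0 with both drugs, 153 and 124 in JVM2, and 173 and 118 in MAVER1, so that it was lower in MAVER1 also. LSM10, a subunit of the U7 particle, was at -0.48 ± 0.09 (adjusted p = 0.00535), and 5 of the other 10 are shared Sm proteins of spliceosomal particles. NPAT, the activator of histone gene transcription, was at 0.18 ± 0.10 (adjusted p = 0.205), and CASP8AP2 at -0.10 ± 0.13, LSM11 at -0.12 ± 0.09, ZNF473 at -0.02 ± 0.10 and ERI1 at -0.04 ± 0.09 did not pass either. Among 16 genes for histone mRNA decay 6 passed the adjusted p as lower and 3 as higher, and among 14 genes of canonical polyadenylation 6 as lower and 0 as higher (14% and 14.2% of all genes), with no call at the fold required in either list. The list of histone chaperones gave 9 of 17 as lower, and ASF1B was at -0.70 (adjusted p = 0.0115).

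S phase genes other than histones had median ratios to control below 0 in every line with ironomycin and with both drugs. For ironomycin none of 44 tested was called and 20 had an unadjusted p under 0.05, all lower, where 11.2% of all genes were lower at that p. With both drugs 31 of 44 passed the adjusted p as lower, where 14% of all genes did, and none reached the fold. CCNA2 was at -0.82 ± 0.13 (adjusted p = 0.00347), RRM2 at -0.79 ± 0.15 (adjusted p = 0.00562) and MCM2 at -0.62 ± 0.13 (adjusted p = 0.00755), whereas PCNA at -0.47 ± 0.18 (adjusted p = 0.0685), E2F1 at -0.16 ± 0.10 and CCNE2 at -0.11 ± 0.19 did not pass. Their median log2 ratio with both drugs was -0.69 for JEKO1, -0.21 for JVM2 and -0.46 for MAVER1. With both drugs the order of the lines thus was not that of the histone members, which had the lowest median in JVM2 and a median of 0.05 in MAVER1. With ironomycin alone the order was the same in both lists. The medians for JEKO1, JVM2 and MAVER1 were then -0.40, -0.19 and -0.13 for the S phase genes and -0.81, -0.80 and -0.24 for the members. Whether the members follow the S phase genes was not tested. Of 15 tested genes linked with exit from the cell cycle, 4 passed as lower and 4 as higher with both drugs, beside 14% and 14.2% of all genes.

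**Figure D5:**
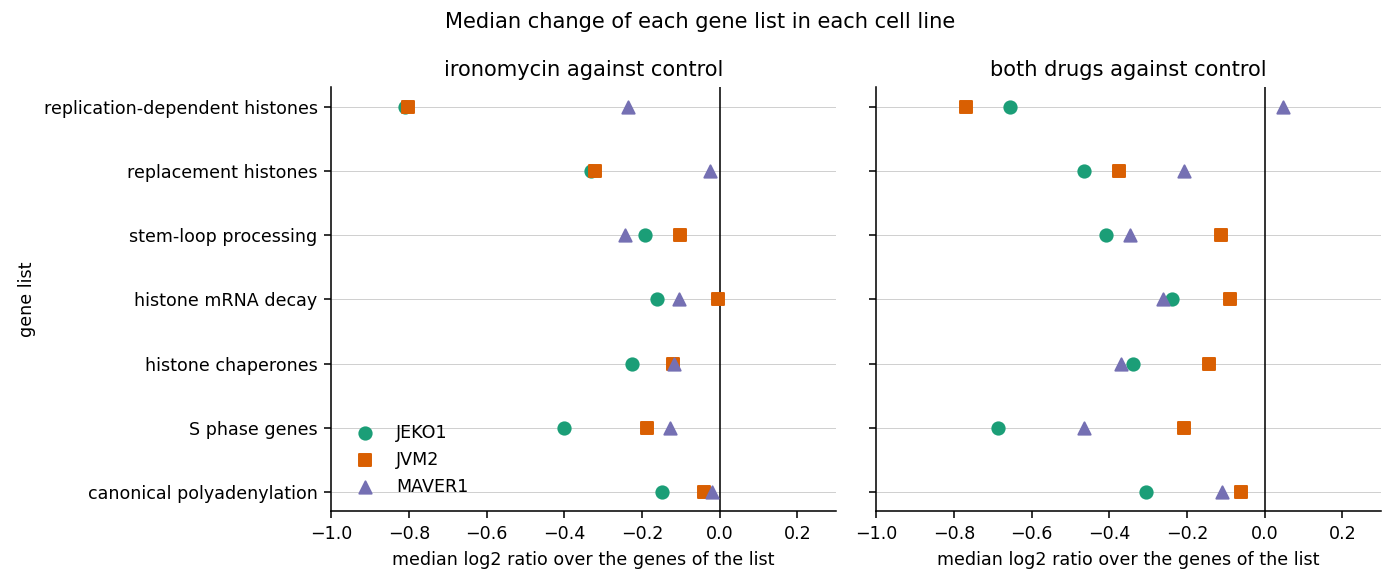
Median log2 ratio to control over the genes of each list (horizontal axis) with ironomycin (left) and both drugs (right) in JEKO1 (circles), JVM2 (squares) and MAVER1 (triangles), 1 library against another in each. Among the lists plotted, which leave out the cell type markers and some other lists, the replication-dependent histones have the lowest medians in JEKO1 and JVM2 for ironomycin, at -0.81 and -0.80, and a median of 0.05 in MAVER1 with both drugs, where the S phase genes are at -0.46.

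Other RNA without a polyA tail gave little signal and no common direction. The 24 small RNAs with a row, such as SNORD17 and SNORA73B, summed to 4.96 to 8.19 CPM in the 12 libraries. In JEKO1 the sum was 6.36 in the control, 6.94 with ironomycin and 7.97 with both drugs. In JVM2 it was 6.99, 5.80 and 5.82, and in MAVER1 7.30, 5.77 and 4.96. Of 6 tested, none was called for ironomycin or both drugs. SNORD17 passed the adjusted p as lower with both drugs, where 14% of all genes did. Of markers of other cells, 2 of 3 tested T-cell genes, CD3E and CD3G, were called as lower with both drugs, as were 1.48% of all genes. Both were near 0 in some lines. CD3G had at most 0.0285 CPM in JVM2 and MAVER1, and CD3E at most 0.0808 CPM in MAVER1. The T-cell sum was 0.0829 to 3.23 CPM in the controls, 0.0269 to 1.37 with ironomycin, 0.0808 to 1.65 with ibrutinib and 0.0264 to 0.728 with both drugs, with CD3D at 0 in JVM2 and MAVER1 and CD2 at 0 in JEKO1 and MAVER1. Of the 4 monocyte genes, 3 were tested and LYZ was called as lower with both drugs, as were 1.48% of all genes. FCGR3A was at 0 in every library and the sum was 0.369 to 5.07 CPM. The pair of fibroblast genes summed to 0.980 to 32.9 CPM and the epithelial pair to 0.377 to 22.7 CPM, both highest in the MAVER1 library with both drugs. The 6 B-cell genes summed to 1220 to 2105 CPM. With both drugs all 6 had a fitted change below 0 and 2 passed the adjusted p as lower, where 14% of all genes did. CD79A was at -0.53 ± 0.13 (adjusted p = 0.0151). The 2 MCL markers divided with both drugs. SOX11, with no reads in JVM2, was called as higher, as were 4.81% of all genes, and CCND1 was at -0.31 ± 0.16 (adjusted p = 0.167). The part of these RNAs in the histone values was not tested.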

How the data were processed

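Counts per gene were deposited by the authors as 1 table of raw read counts for 63677 Ensembl genes and 12 libraries. Libraries were made from polyA RNA with a stranded paired-end DNBSEQ kit. The submitters' processing notes name GRCh37, STAR and DESeq2. The counting tool and its strand setting are not given in the sources used here. Every count column matched 1 sample.

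The gene name table gave symbols to 52181 genes and GENCODE 29 to another 345, H2AC18 among them. The members and gene lists were chosen with earlier results of these data known. Genes were filtered with filterByExpr, which left 18674, scaled by TMM and tested with the edgeR 4.0.16 quasi-likelihood test (R 4.3.3), with treatment and cell line in 1 fit. Benjamini-Hochberg adjustment ran over all genes tested. Calls required an adjusted p under 0.05 together with a log2 change of 1 or more in size. Calls of a difference between lines had no fold minimum. The scripts were tested on simulated counts. DESeq2 1.42.0 was an alternative, with other scalings, filters, model terms and offsets for GC content and length. Tables and figures used Python with pandas and matplotlib.

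Members were named by rule: the 3 with the highest mean level in each class, the called members, and the genes nearest the threshold of 10 reads on either side. SLBP, NPAT, CASP8AP2, LSM10, LSM11, ZNF473, ERI1, the listed histone variants and 6 S phase genes were named whatever their values. Other genes were named after their values were seen. Some results on single genes are not reported here. Libraries of a line come from the same cell line, which pairs them: the correlation of their departures from treatment means was 0.926 to 0.976 within lines (18 pairs) and -0.705 to -0.127 between lines (48 pairs). Cell line is therefore a block. No label says that treatments were repeated in separate cultures of a line, so p-values of the treatment comparisons measure the spread between lines. The test of a difference between lines takes its error from the libraries within lines, with the libraries with and without ibrutinib standing in for replicates. Total counts of 35448523 to 38630809 per library set the precision, and the members' 2123 to 36557 reads limit it most in MAVER1.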

Additional observations from a re-analysis of the deposited data

Results flagged for a closer look

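A direct test found a different ironomycin effect by cell line for 10 of 28 tested histone genes (edgeR quasi-likelihood test, adjusted p under 0.05). Over all 18674 genes tested, across which p was adjusted, 7.97% were called. Each line had n = 2 libraries with and 2 without ironomycin. The libraries of each pair differed by ibrutinib and stood in for replicates. H3C14 and H3C15, which had nearly the same count in every library, are counted as 2 of the 10. The adjusted p was 0.00126 for H2BC12, 0.00151 for H1-2, 0.00209 for H2AC18, 0.00326 for H2AC6 and 0.00474 for H4C8. It was 0.0232 for H2AC25, 0.0258 for H3C15, 0.0258 for H2BC21, 0.0272 for H3C14 and 0.0407 for H2BC4. Groups of 3 libraries are too small for a search for single outlying libraries, and none was made.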

How the results depend on the processing

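Of the results on members, those for ibrutinib, for both drugs against ironomycin and for the departure from additivity had 0 calls under each alternative run. For ironomycin the count of 0 became 1 with no filter on low counts, with DESeq2 and with no minimum fold, and ranged from 0 to 1 when a line was left out. For both drugs against control the count of 5 was 3 with library totals, 3 with offsets for GC content and length, 0 with only the libraries compared, and 1 to 3 when a line was left out. For both drugs against ibrutinib the count of 5 was 1 with only the libraries compared and 0 to 5 when a line was left out. Without the replicate block, that is without cell line in the model, each of these counts was 0, and no such fit exists for the difference between lines. The count of 10 for that difference was 0 to 9 when a line was left out, with 0 without MAVER1, and 13 with DESeq2. Library totals moved the median of all genes with both drugs from 0.05 to 0.18 and that of members from -0.60 to -0.48. An alternative added after seeing the data left out H2BC12, H1-2, H2AC6 and H2AC18 and moved the log2 ratio of the summed level with ironomycin in JVM2 from -1.36 to -0.65, and another counted H3C14 and H3C15 as 1 gene. No called value changed sign. The share of all genes called under each alternative is not given here, so the changes in these counts need not be particular to the members. Low reads (at most 40 in any library) limit H2BC12L, H1-4, H2BC26, H4C3, H1-5, H3C12, H3C13 and H2BC13, which was called with both drugs, and the causes of these changes were not tested.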
